A study of Mus musculus with 8 samples.

Results

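The 44 genes described here are axon guidance ligands and receptors: 7 class 3 semaphorins, 13 membrane-bound semaphorins, 8 plexins, 3 Slits, 3 Robos, 2 netrins, 2 UNC5 receptors, 3 ephrins and 3 Eph receptors. They were picked by symbol from the 32285 genes listed in each count matrix. The rule uses none of their values, but the list was chosen with earlier results of these data known. The neuropilins Nrp1 and Nrp2, which bind class 3 semaphorins, are not among them and are given only beside them.

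The cells came from periosteum, the membrane on the outer bone surface, and were profiled by droplet single-cell RNA sequencing. Left femurs and tibias of C57BL/6J male mice, 16 weeks old, were digested to release the cells. One group was fed normal diet chow (ND) and the other high fat diet chow (HFD), and no allele or other agent was given to either. The labels list 4 replicates per diet, but each diet has a single matrix with no map from cells to replicates or mice. Each diet is therefore 1 sample, and no difference between diets was tested. The study asked how the diet changes signals between nerves and skeletal cells in this tissue, and guidance ligands are one kind of such signal.

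Axon guidance ligands are secreted or membrane-bound proteins that attract or repel growing axons. Class 3 semaphorins signal through neuropilins and plexins, and most membrane-bound semaphorins bind plexins directly. Slits bind Robos, netrins bind UNC5 and DCC family receptors, and ephrins bind Eph receptors on neighbouring cells. The same proteins also steer blood vessels, immune cells and bone-forming cells, so their RNA is not particular to nerve tissue.

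A UMI stands for 1 counted RNA molecule. Barcodes counted as cells if their detected genes numbered over 500 but under 8000 and mitochondrial transcripts took under 20% of their UMIs. This left 6029 ND cells and 6224 HFD cells, with a median of 4610 and 4823.5 UMIs per cell. The kept cells shared 14 barcode sequences between the libraries. Levels are given as UPM: the UMIs of a gene summed over a cell class, per 1000000 UMIs of that class. UMIs were read from the 3′ end of transcripts, so UPM is not divided by gene length. Intervals in parentheses are exact 95% intervals, Poisson for levels and conditional binomial for ratios. They cover counting error only, not differences between cells or between mice. In this dissociated tissue 39.8% of ND and 39.0% of HFD cells were neutrophil-like. Mesenchymal-like cells made up 6.80% and 10.8%, and endothelial-like cells 1.94% and 3.73%. Of 7 neuron markers, the synaptic gene Snap25 and the neurofilament gene Nefl had 0 UMIs in both libraries, and the other 5 had 9 to 642 UMIs in ND and 3 to 741 in HFD.

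Each of the 44 genes had at least 1 UMI in both libraries, and together they held 13668 ND and 16915 HFD UMIs. At least 20 UMIs were counted for 38 genes in ND and 40 in HFD. Sema4g (5 and 8 UMIs), Sema5b (1 and 2), Slit1 (17 and 14) and Unc5c (10 and 10) stayed under 20 in both, and Plxnb1 (17 and 31) and Robo2 (12 and 38) only in ND. The cells were clustered without these genes and the classes named from marker genes, so the classes do not rest on the levels given here.

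Endothelial-like cells carried the most guidance RNA of the 3 stromal and vascular classes, at 1703 UPM in ND and 1659 UPM in HFD for the 44 genes together. Mesenchymal-like cells held 937 and 983 UPM and pericyte-like cells 653 and 639 UPM. The neutrophil-like class was lower, at 219 and 196 UPM, and hematopoietic progenitor-like cells held 84.9 and 83.5 UPM. Among the 38 genes that reached 20 UMIs in each library, 35 had the same highest class in both. That class was endothelial-like for 16 genes and mesenchymal-like for 12. For 22 genes the interval of the highest class stood apart from that of the next class in both libraries, 13 of them endothelial-like, 8 mesenchymal-like and 1 pericyte-like. No share over all genes was computed for these counts, so they do not show a pattern particular to guidance genes.

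**Figure D1:**
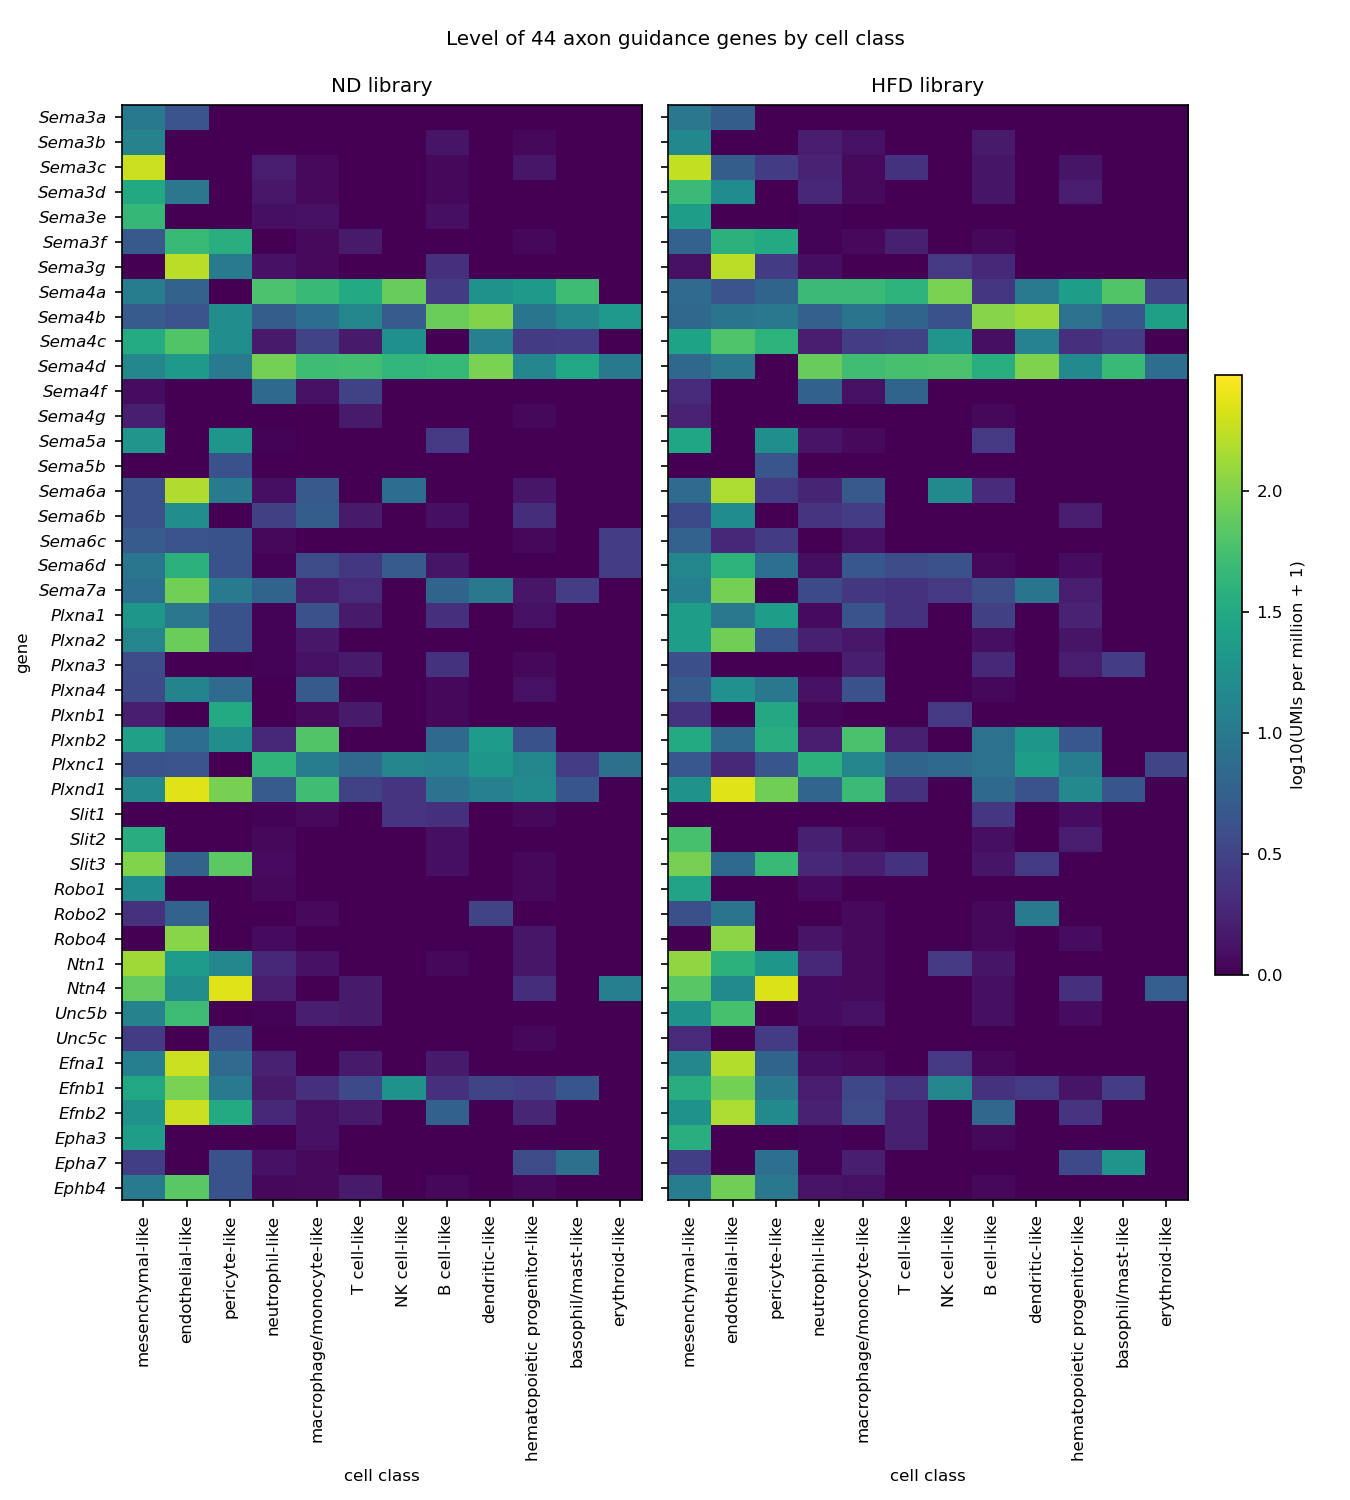
Level of each of the 44 genes (rows) in each cell class (columns) for the ND and HFD libraries, shown as color on a log10(UPM + 1) scale. Endothelial-like cells held the highest level for 16 genes and mesenchymal-like cells for 12 of the 38 genes counted in both libraries. The share over all genes was not computed.

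Promoter sequences are shown for 4 genes whose RNA lay mainly in 1 class: Robo4 and Sema3g for endothelial-like cells, and Sema3c and Slit2 for mesenchymal-like cells. They are the 250 bases before the RefSeq transcript start on the + strand of GRCm38.p6, the patch release of mm10, at chr9:37401722-37401971, chr14:31217623-31217872, chr5:17574566-17574815 and chr5:47982905-47983154 in that order. Capitals mark GGAAG, the GGAA core of ETS factors with a G after it, or its reverse complement CTTCC. ETS factors are a family with many endothelial members. GGAA before any other base was not searched and is not marked.
Robo4: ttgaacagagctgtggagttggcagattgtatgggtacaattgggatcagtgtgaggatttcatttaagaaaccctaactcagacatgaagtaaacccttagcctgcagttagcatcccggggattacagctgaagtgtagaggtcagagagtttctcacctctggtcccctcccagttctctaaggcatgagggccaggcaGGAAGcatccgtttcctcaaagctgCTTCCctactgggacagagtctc
Sema3g: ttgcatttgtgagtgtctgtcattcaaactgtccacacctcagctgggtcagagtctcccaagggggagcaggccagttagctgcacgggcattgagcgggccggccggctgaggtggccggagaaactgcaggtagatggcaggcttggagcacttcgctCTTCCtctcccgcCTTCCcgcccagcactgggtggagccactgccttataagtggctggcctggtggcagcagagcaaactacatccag
Sema3c: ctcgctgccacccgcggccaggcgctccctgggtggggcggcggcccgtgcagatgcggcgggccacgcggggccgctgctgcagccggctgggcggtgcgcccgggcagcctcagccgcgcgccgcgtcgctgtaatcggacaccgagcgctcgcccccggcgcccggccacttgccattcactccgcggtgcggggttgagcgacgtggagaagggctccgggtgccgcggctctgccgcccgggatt
Slit2: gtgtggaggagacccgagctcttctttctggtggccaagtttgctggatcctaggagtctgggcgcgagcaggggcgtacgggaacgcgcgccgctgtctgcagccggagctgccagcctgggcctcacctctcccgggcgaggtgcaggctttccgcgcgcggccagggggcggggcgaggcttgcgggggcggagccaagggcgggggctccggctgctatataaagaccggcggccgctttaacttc
The Robo4 and Sema3g windows each held 2 matches, while the Sema3c and Slit2 windows held 0. A match was common, since 64.1% of the 32851 mouse promoter windows of this length hold 1 or more on either strand. The core TGTGGT of RUNX factors, or ACCACA, was in none of the 4 windows and in 14.0% of all windows. GC content was 49.6% for Robo4, 60.4% for Sema3g, 78.4% for Sema3c and 69.6% for Slit2, against a median of 52.4%. Of the 44 genes, 37 had an entry in the promoter table. The 26 with a single start included 18 with GGAAG or CTTCC and 3 with the RUNX core.

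Sema3c, a secreted semaphorin that repels or attracts axons and acts on vessels, was the class 3 semaphorin with the most UMIs in periosteal mesenchymal-like cells. Its level was 188 UPM (176 to 200) in ND and 178 UPM (168 to 188) in HFD. A Sema3c UMI was found in 47.1% of ND and 45.2% of HFD mesenchymal-like cells, against 0.0660% and 0.203% of B cell-like cells, where a UMI of this gene may be free RNA. The median depth was 10636 and 9526 UMIs in mesenchymal-like cells and 3887 and 3822.5 UMIs in B cell-like cells. Mesenchymal-like cells held 98.1% and 97.6% of all Sema3c UMIs.

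Sema3e, a ligand that binds plexin-D1 without a neuropilin and repels endothelial cells, was likewise mesenchymal, at 44.1 UPM (38.4 to 50.5) in ND and 23.3 UPM (19.8 to 27.1) in HFD. Endothelial-like and pericyte-like cells had 0 Sema3e UMIs in both libraries. Its receptor gene Plxnd1 was highest in endothelial-like cells, at 232 UPM (194 to 275) and 226 UPM (200 to 256). Ligand and receptor RNA were thus highest in different classes of the same tissue.

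Sema3d was mesenchymal, at 30.7 UPM and 47.6 UPM, with 8.66 and 15.0 UPM in endothelial-like cells. Sema3a, a repellent of sensory and sympathetic axons that also acts in bone, was low, at 8.99 UPM (6.51 to 12.1) and 8.57 UPM in mesenchymal-like cells. It had 0 UMIs in pericyte-like cells and in every blood class described here (neutrophil-, macrophage/monocyte-, B, T, NK and dendritic-like). Sema3b was at 11.7 and 13.3 UPM in mesenchymal-like cells. All of these genes were highest in mesenchymal-like cells in both libraries.

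Sema3g and Sema3f differed from the other class 3 semaphorins. Sema3g, which arteries express during development, was at 166 UPM (135 to 203) in ND and 165 UPM (142 to 190) in HFD endothelial-like cells, with 0 and 2 UMIs in mesenchymal-like cells. Sema3f was at 46.8 and 38 UPM in endothelial-like cells and at 34.8 and 32.0 UPM in pericyte-like cells, and these intervals overlapped. The family sum of class 3 semaphorins was 287 and 276 UPM in mesenchymal-like cells and 225 and 226 UPM in endothelial-like cells, carried by different genes.

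Netrins and Slits were mainly mesenchymal and mural. Ntn1, the classical attractant of commissural axons, was at 133 UPM (123 to 144) in ND and 114 UPM (106 to 122) in HFD mesenchymal-like cells, and at 22.5 and 38 UPM in endothelial-like cells. Ntn4, a basement membrane netrin, was highest in pericyte-like cells, at 228 UPM (178 to 287) and 220 UPM (183 to 262), against 75.5 and 66.8 UPM in mesenchymal-like cells. A Ntn4 UMI was found in 77.4% and 74.6% of the 31 and 59 pericyte-like cells, and in 0 and 2 of the B cell-like cells. Among netrin receptors, Unc5b, which restrains vessel sprouting, was at 48.5 and 55.7 UPM in endothelial-like and 11.9 and 17.9 UPM in mesenchymal-like cells.

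Slit3, a Slit ligand with known roles in bone and vessels, was at 101 UPM (92.0 to 110) and 92.3 UPM (85.3 to 99.7) in mesenchymal-like cells, and at 69.7 and 46.2 UPM in pericyte-like cells. Slit2 was at 34.1 UPM (29.1 to 39.7) and 55.8 UPM (50.4 to 61.7) in mesenchymal-like cells, with 0 UMIs in endothelial-like and pericyte-like cells. The Slit receptor genes split by class. Robo1, the widely used Slit receptor, had 71 and 189 UMIs in mesenchymal-like cells and 0 in endothelial-like cells. Robo4, the endothelial member of the family, showed the opposite pattern, with 62 and 125 UMIs in endothelial-like cells (107 and 111 UPM) and 0 in mesenchymal-like cells. Robo2 was scarce, at 6 and 21 mesenchymal-like UMIs.

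Ephrins and Eph receptors gave a mostly endothelial pattern. Efnb2, the ephrin of arterial endothelium, was at 187 and 149 UPM in endothelial-like cells, and its receptor gene Ephb4, of venous endothelium, at 69.3 and 86.7 UPM. Efna1 reached 189 and 153 UPM in the same cells. Efnb1 was at 93.5 and 90.2 UPM there and at 29.1 and 33.6 UPM in mesenchymal-like cells. The exception was Epha3, an ephrin-A receptor, with 110 and 247 mesenchymal-like UMIs (23.0 and 35.3 UPM) and 0 endothelial-like UMIs. Epha7 was low, with 4 and 10 UMIs in basophil/mast-like cells, its highest class.

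Membrane-bound semaphorins and plexins reached into both the vascular and the blood classes. Sema6a, a transmembrane ligand of A-type plexins, was at 151 and 149 UPM in endothelial-like cells, and Sema7a, the lipid-anchored ligand of plexin-C1 and integrins, at 88.3 and 90.2 UPM. Sema4c was at 62.4 and 61.9 UPM, Sema6d at 38.1 and 38.9 UPM and Sema6b at 15.6 and 15.0 UPM in the same class. Of the plexins, Plxna2 was at 83.1 and 85.8 UPM and Plxna4 at 12.1 and 16.8 UPM in endothelial-like cells. Plxnb1 was a pericyte-like gene, with 10 and 17 of its UMIs there (31.7 and 30.2 UPM). Most UMIs of Sema5a (18.6 and 27.6 UPM), Sema6c (4.18 and 5.0 UPM) and Plxna1 (19.4 and 22.9 UPM) came from mesenchymal-like cells, and 13 of 28 and 21 of 39 UMIs of Plxna3 did so.

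Sema4a, Sema4b, Sema4d and Plxnc1 were higher in some blood classes than in any stromal class. Sema4d, the semaphorin CD100 that immune cells shed and that osteoclasts use to restrain osteoblasts, was at 89.5 UPM (84.9 to 94.2) in ND and 79.5 UPM (75.3 to 83.8) in HFD neutrophil-like cells. It was at 50.6 and 51.4 UPM in macrophage/monocyte-like, 52.0 and 55.8 UPM in T cell-like, 45.0 and 34.8 UPM in B cell-like, and 94.0 and 98.0 UPM in dendritic-like cells. In mesenchymal-like cells it stood at 13 and 5.86 UPM. The interval of each of these blood classes lay above that of mesenchymal-like cells in both libraries.

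Among neutrophil-like clusters, Sema4d and Sema4a were lowest where granule genes of immature neutrophils led. Sema4d was at 9.03 and 11.8 UPM in the cluster led by Camp and Ngp, and at 27.8 and 26.6 UPM in the cluster led by Ngp and Ltf. The Retnlg and Ltf cluster stood at 106 and 89.7 UPM. The cluster led by the stefin gene Cstdc4 and by Retnlg reached 159 and 166 UPM, and the cluster led by the interleukin-1 genes Il1r2 and Il1b 208 and 167 UPM. Sema4a kept the same order, from 24.2 and 22.6 UPM in the Camp and Ngp cluster to 119 and 93.6 UPM in the Il1r2 and Il1b cluster. Plxnc1, the receptor of Sema7a, peaked instead in the Retnlg and Ltf cluster, at 71.3 and 54.2 UPM, against 23.2 and 28.5 UPM in the Camp and Ngp cluster and 31.5 and 29.7 UPM in the Il1r2 and Il1b cluster.

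Sema4a was also high in NK cell-like cells (78.6 and 93.6 UPM), macrophage/monocyte-like cells (46.4 and 48.1 UPM) and T cell-like cells (31.8 and 38.5 UPM), while B cell-like cells had 13 and 11 UMIs. Sema4b took the opposite lymphoid position. It was at 81.9 UPM (75.6 to 88.5) and 105 UPM (98.0 to 113) in B cell-like cells and at 4.13 and 3.12 UPM in NK cell-like cells. Within the B lineage Sema4b was highest in the cluster led by Vpreb3 and Ebf1, at 239 UPM (205 to 278) and 355 UPM (318 to 394), and lowest in the cluster led by the antigen presentation genes H2-Aa and H2-Eb1, at 14.9 and 18.5 UPM.

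Plxnb2, a receptor for class 4 semaphorins, and Plxnd1 marked macrophages among the blood cells. Plxnb2 was at 63.3 UPM (57.4 to 69.6) and 57.7 UPM (52.0 to 63.7) in macrophage/monocyte-like cells and at 0.94 and 0.587 UPM in neutrophil-like cells. The C1qa cluster of resident macrophages held 86.7 and 74.1 UPM and the Ms4a6c monocyte cluster 48.0 and 48.8 UPM. Plxnd1 was at 51.2 and 47.9 UPM in macrophage/monocyte-like cells. Sema4f, a little studied class 4 semaphorin, had 97 and 84 of its 105 and 104 UMIs in the large neutrophil-like class, at 6.08 and 4.93 UPM. T cell-like cells were at 2.02 UPM in ND and 5.31 UPM (8 UMIs) in HFD, where they were the highest class. The intervals of the 2 classes overlapped in both libraries.

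**Figure D2:**
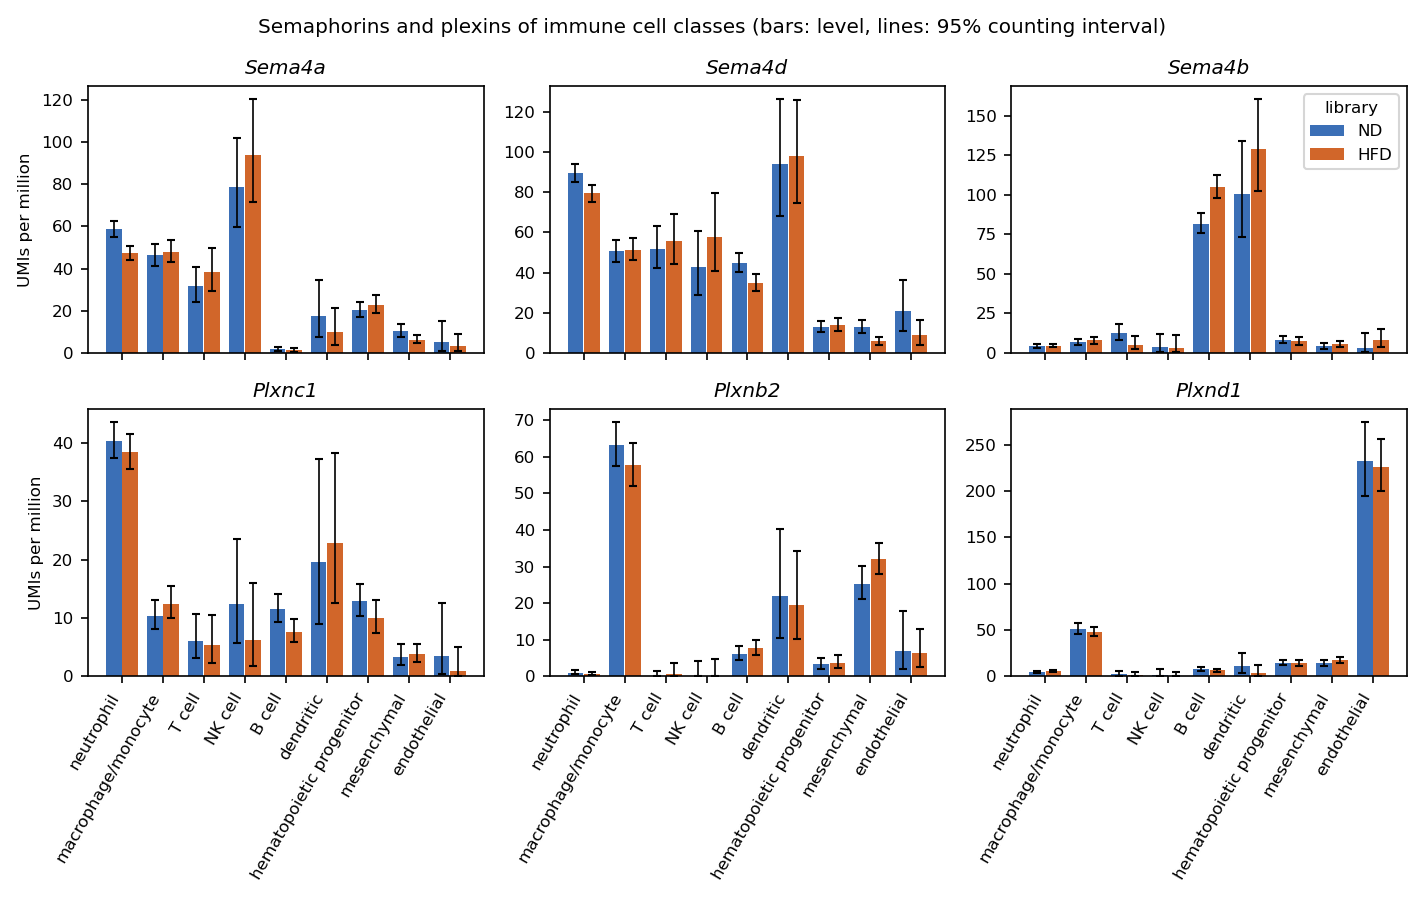
Levels in UPM (bars, with 95% counting intervals as lines) of Sema4a, Sema4d, Sema4b, Plxnc1, Plxnb2 and Plxnd1, ND and HFD side by side. The columns are immune cell classes and, beside them, mesenchymal-like and endothelial-like cells. Among the immune classes drawn, Sema4b stands out in B cell-like and dendritic-like cells, Plxnb2 and Plxnd1 in macrophage/monocyte-like cells, and Plxnc1 in neutrophil-like cells. Plxnd1 is highest in endothelial-like cells, at 232 and 226 UPM.

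To set stroma against immune cells, UMIs were summed over 2 niches. The stromal/vascular niche joined the pericyte-, endothelial- and mesenchymal-like classes (558 ND and 963 HFD cells), and the immune niche the T cell-, neutrophil- and macrophage/monocyte-like classes (3217 and 3166 cells). A gene was compared if it had at least 20 UMIs over both niches and was called at a 2-fold difference. In ND, 29 of 36 genes compared were higher in the stromal/vascular niche, where 43.7% of all genes compared were, and 4 were lower, where 15.4% of all genes were. In HFD, 34 of 40 were higher (49.2% of all genes) and 4 lower (14.4%). The median log2 ratio of the guidance genes was 5.83 in ND and 5.28 in HFD, against 0.77 and 0.97 over all genes compared, and was the same with genes at 0 UMIs in a niche set to 3 UMIs. Relative to the median of all genes, 27 were higher and 5 lower in ND and 32 higher and 4 lower in HFD. The genes compared had to reach 20 UMIs, so a gene too scarce in both niches is not in these counts. A gene could also reach the limit through the stromal/vascular niche alone, and was then bound to be called higher there. Most of the genes called higher in ND did so, among them Sema3a (0 immune UMIs), Slit2 (2), Robo1 (2), Slit3 (3), Sema3c (10), Ntn4 (10) and Ntn1 (16). The same limit applied to all genes compared, and the median ratios rest in part on such small immune sums.

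The 2 libraries placed the genes alike: 29 were past 2-fold on the stromal/vascular side and 4 on the immune side in both, of 36 compared in both. The 29 included all 7 class 3 semaphorins, Slit2, Slit3, Ntn1, Ntn4, Robo1, Robo4, Unc5b, the 3 ephrins, Epha3 and Ephb4. Of these named genes, all but Efnb1 (21 immune UMIs) had under 20 immune UMIs in ND, so their ND call was bound. Slit3 was at 89.3 UPM against 0.122 UPM (3 immune UMIs) in ND and at 78.1 against 0.872 UPM in HFD, log2 ratios of 9.30 (7.96 to 11.8) and 6.45 (5.87 to 7.17). Sema3a had 0 immune UMIs in both libraries. On the immune side stood Sema4a (log2 ratio -2.52 and -2.99), Sema4d (-2.47 and -3.58), Sema4f (-3.99 and -2.12) and Plxnc1 (-3.18 and -3.12). Plxnb2 (0.37 and 0.87) and Sema4b (-0.24 and 0.16) stayed within 2-fold in both libraries, and Sema6b (0.79 and 1.50) in ND only. B cell-like and dendritic-like cells are in neither niche, and they held the most Sema4b, at 81.9 and 105 UPM and at 101 and 129 UPM.

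**Figure D3:**
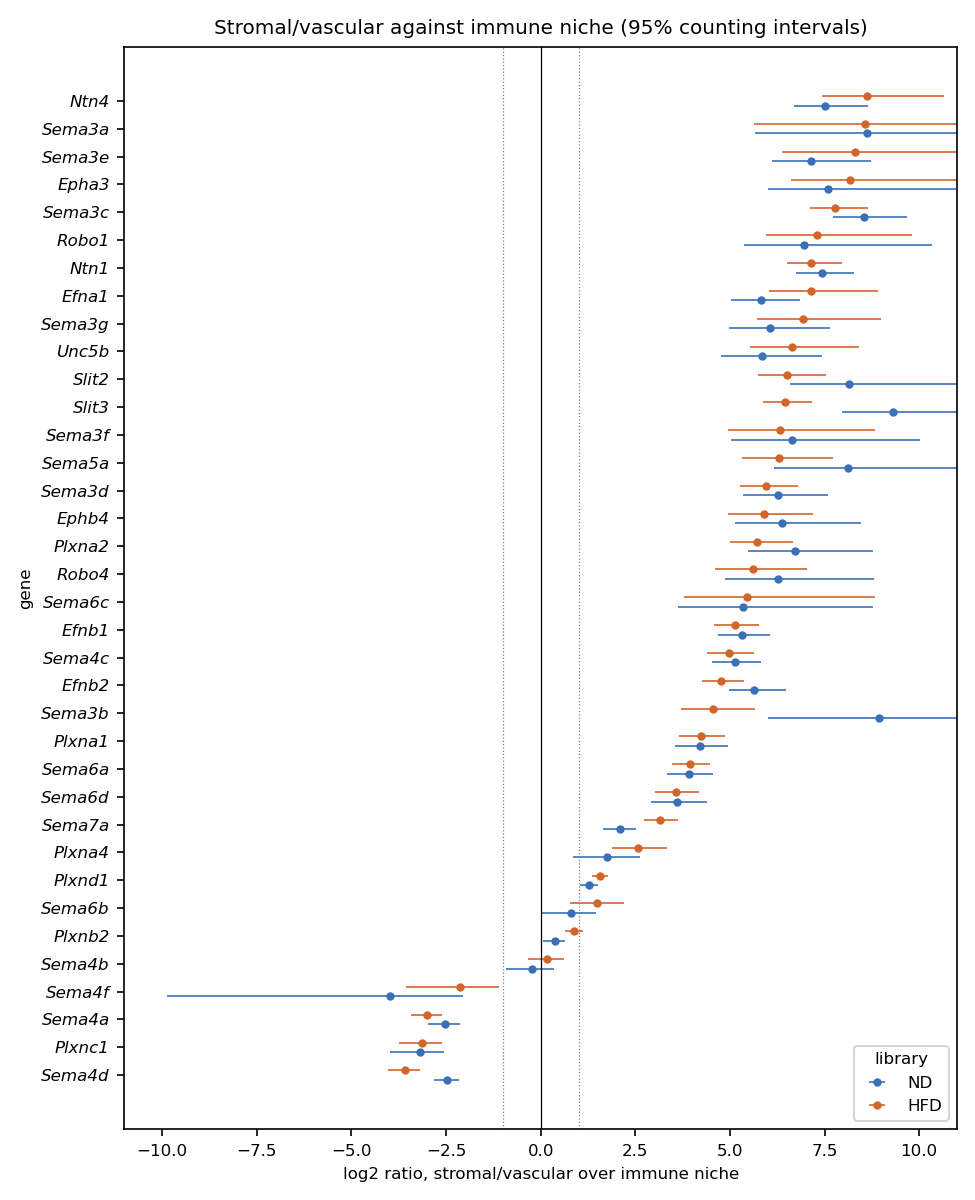
Log2 ratio of the level in the stromal/vascular niche over the immune niche for each gene with at least 20 UMIs, with 95% counting intervals, ND and HFD as separate points. Most genes lie to the right of 0, and Sema4a, Sema4d, Sema4f and Plxnc1 lie more than 2-fold to the left in both libraries.

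Other guidance genes, taken from a fixed list, were mostly on the same side. Of 33 further ligands and receptors, 15 in ND and 19 in HFD could be compared, and 14 and 17 were past 2-fold higher in the stromal/vascular niche, with 1 lower in each. Among them were Flrt2, an UNC5 ligand (68.4 and 78.5 UPM in the stromal/vascular niche), Neo1, a netrin and RGM receptor (58.2 and 56.2 UPM), and Rgmb (36.7 and 45.8 UPM). Of 12 co-receptors and partners, 11 were compared, 7 were higher and 1 lower in both libraries. Nrp1 stood at 113 and 148 UPM in the stromal/vascular niche and 26.2 and 23.6 UPM in the immune niche, and Nrp2 at 81.4 and 110 UPM against 10.4 and 10.1 UPM. All 28 intracellular effectors were compared, with 19 and 18 higher and 2 and 3 lower. Over all genes compared, 43.7% in ND and 49.2% in HFD were higher in the stromal/vascular niche, and 15.4% and 14.4% were lower.

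Mesenchymal-like cells were clustered again into 9 subclusters, and the 4 largest are described here. The Pi16 and Dpp4 fibroblast progenitor-like subcluster had 90 ND and 105 HFD cells, the Ccl11 and Col15a1 fibroblast-like subcluster 102 and 173, the Wnt16- and Mfap4-high subcluster 88 and 123, and the subcluster high in the bone matrix gene Ibsp and in Postn 58 and 128. The first 2 were named from fixed markers and the other 2 after genes high in them, none of them a guidance gene. Wnt16 does not set the last 2 apart. It was at 423 and 449 UPM in the Wnt16- and Mfap4-high and at 450 and 432 UPM in the Ibsp- and Postn-high subcluster. Of 26 guidance genes compared over the 4, 22 had the same highest subcluster in both libraries, a count for which no share over all genes was computed.

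The Pi16 and Dpp4 subcluster had the highest guidance RNA of the 4, at 1392 UPM in ND and 1476 UPM in HFD. Its Sema3c level was 494 UPM (454 to 536) and 588 UPM (547 to 632), against 77.5 and 73.4 UPM in the Ccl11 and Col15a1 and 13.8 and 21.8 UPM in the Ibsp- and Postn-high subcluster. Sema3e was at 101 and 94.4 UPM there and had 0 UMIs in the Ibsp- and Postn-high cells of both libraries. Ntn1 was at 259 and 227 UPM, with 3 and 8 UMIs in the Ibsp- and Postn-high cells, and Ntn4 at 141 and 154 UPM. Among the 4 subclusters, these secreted ligands were highest in the same one. Detection of several of them in the same cell was not examined.

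The Ibsp- and Postn-high subcluster carried another set. Slit2 was at 136 UPM (106 to 172) and 189 UPM (164 to 216) there and had 0 and 2 UMIs in the Pi16 and Dpp4 subcluster. Plxna2, a semaphorin receptor, was at 76.9 and 93.4 UPM, and Efnb1 and Efnb2, ephrins that bone cells use, at 82.9 and 70.7 UPM and 51.3 and 54.4 UPM. Sema7a (45.4 and 61.7 UPM), Unc5b (43.4 and 53.5 UPM), Sema5a (37.5 and 59.0 UPM) and Sema6d (39.5 and 37.2 UPM) were also highest in these cells.

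Slit3 was spread more evenly, at 136 and 116 UPM in the Ccl11 and Col15a1, 129 and 139 UPM in the Pi16 and Dpp4, 98.6 and 107 UPM in the Ibsp- and Postn-high and 53.3 and 37.7 UPM in the Wnt16- and Mfap4-high subcluster. The Wnt16- and Mfap4-high subcluster held the most Epha3, at 70.4 and 112 UPM, and the most Sema3d of the 4, at 42.2 and 70.2 UPM. It also had Slit2 at 72.4 and 102 UPM.

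Set directly against each other at 2-fold, the Ibsp- and Postn-high subcluster was higher than the Pi16 and Dpp4 subcluster for 10 of 22 guidance genes compared in ND (11.3% of all genes) and 12 of 23 in HFD (12.0%). It was lower for 6 in ND (13.5% of all genes) and 6 in HFD (12.8%). The median log2 ratio was 0.47 and 1.43, against 0.02 and -0.01 over all genes. In ND the Ibsp- and Postn-high and the Pi16 and Dpp4 subcluster held 506901 and 1152423 UMIs. A gene with at least 20 UMIs in the former and under 20 in the latter was thus bound to be called higher. Most of the 10 were such genes, among them Slit2 (69 and 0 UMIs), Plxna2 (39 and 1) and Sema7a (23 and 0). The reverse did not bind a gene to be called lower in ND. The median ratios rest in part on such small sums. Since a subcluster is compared with another of the same clustering, these are descriptions of where the RNA lay.

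**Figure D4:**
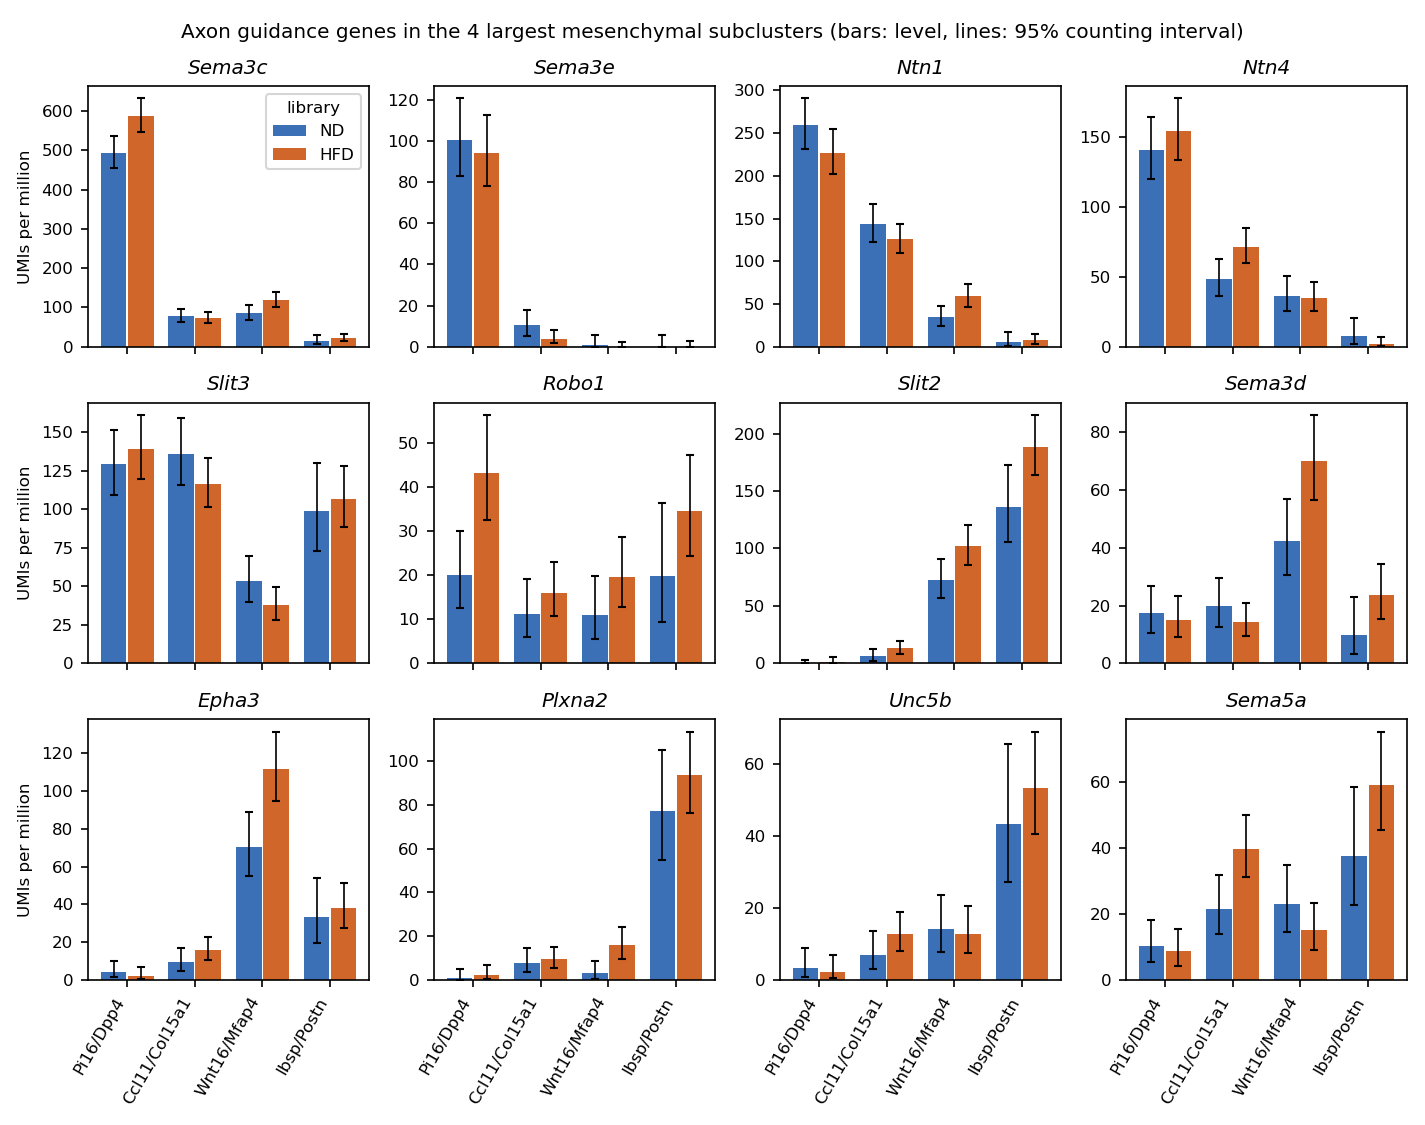
Levels in UPM (bars, with 95% counting intervals as lines) of 12 guidance genes in the 4 largest mesenchymal subclusters of the ND and HFD libraries. Sema3c, Sema3e, Ntn1 and Ntn4 are highest in the Pi16 and Dpp4 subcluster, and Slit2, Plxna2, Unc5b and Sema5a in the Ibsp- and Postn-high subcluster.

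Endothelial-like cells were also clustered again. One subcluster was high in the lymphatic genes Ccl21a (6402 UPM in ND and 6180 UPM in HFD) and Mmrn1, with 41 and 55 cells. The largest of the others had 40 and 126 cells and 0 Ccl21a UMIs, as did a Rarres1-high subcluster of 30 and 41 cells. The endothelial cadherin gene Cdh5 stood at 777 to 1781 UPM in these 3 subclusters. Transcripts of other cells were among the genes leading by fold, however, with the B cell precursor gene Vpreb1 (9.37 and 158 UPM), Igll1 and Mzb1 in the largest other subcluster and the T cell gene Trbc2 and Ccl5 in the Rarres1-high one, and their part in the values that follow was not tested. Sema3g was at 292 UPM (228 to 369) and 311 UPM (258 to 372) in the Ccl21a-high cells and at 28.1 and 91.3 UPM in the largest other subcluster. Sema3f followed it, at 79.2 and 67.4 UPM against 28.1 and 22.8 UPM. Plxnd1 leaned the other way, at 200 and 148 UPM in the Ccl21a-high cells against 366 and 311 UPM, as did Robo4, at 66.7 and 62.2 UPM against 206 and 149 UPM. The Robo4 level in the Rarres1-high subcluster was 134 and 159 UPM.

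Between diets, 36 guidance genes could be compared in mesenchymal-like cells, and 24 were higher and 12 lower in HFD. No share over all genes was computed for this split. Past 2-fold, 2 were higher (2.59% of all genes compared) and 1 was lower (2.05%). The median log2 ratio was 0.24, against 0.05 over all genes. Counting intervals left out 0 for 10 genes higher in HFD, where 12.3% of all genes compared did so, and for 5 genes lower (8.73% of all genes), a rule that deeply counted genes meet more easily. As each diet is 1 library, these intervals say nothing of variation between mice.

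Of the genes higher in HFD, Robo1 was at 14.8 UPM (11.6 to 18.7) in ND and 27.0 UPM (23.3 to 31.1) in HFD, a log2 ratio of 0.86 (0.46 to 1.28). In the Pi16 and Dpp4 subcluster alone it was at 20.0 and 43.2 UPM, a log2 ratio of 1.10 (0.39 to 1.89). With each subcluster given the same weight in both libraries the ratio was 0.95. These weights did not differ between libraries, but they were not equal across subclusters. Robo1 was also higher in HFD in the Ccl11 and Col15a1 (11.2 and 16.0 UPM), Wnt16- and Mfap4-high (11.1 and 19.6 UPM) and Ibsp- and Postn-high (19.7 and 34.5 UPM) subclusters, with intervals that overlapped. A small subcluster high in Prg4 and F13a1, of 4 ND and 14 HFD cells, held 0 and 18 UMIs of the 3 Robos together. Its part in the ratio of 0.95 was not tested. Robo2 (6 and 21 UMIs, log2 ratio 1.18, -0.10 to 2.86) and Sema6a (15 and 45 UMIs, 1.00, 0.16 to 1.98) were the 2 genes past 2-fold, both from few UMIs.

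Slit2 and Plxna2, both genes of the Ibsp- and Postn-high subcluster, had log2 ratios of 0.71 (0.44 to 0.98) and 0.91 (0.48 to 1.37) over all mesenchymal-like cells. That subcluster was 14.1% of ND and 19.0% of HFD mesenchymal-like cells. With the same subcluster weights in both libraries the ratios were 0.47 for Slit2 and 0.55 for Plxna2. Within the Ibsp- and Postn-high subcluster the ratio was 0.46 (0.07 to 0.88) for Slit2 and 0.27 (-0.26 to 0.85) for Plxna2. In the Wnt16- and Mfap4-high subcluster it was 0.49 (0.07 to 0.93) for Slit2. Plxna2 was there at 2.20 (0.65 to 4.78), from 3 and 21 UMIs. The Ccl11 and Col15a1 subcluster had ratios of 1.07 (-0.12 to 2.59) for Slit2 and 0.24 (-0.97 to 1.62) for Plxna2. Epha3 had a log2 ratio of 0.61 (0.29 to 0.95), and 0.57 with the same weights in both libraries.

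Sema3d was higher in HFD by a log2 ratio of 0.63 (0.35 to 0.92), and 1 small subcluster decided the value. The Col2a1- and Acan-high subcluster had 5 Sema3d UMIs in 7 ND cells and 130 in 15 HFD cells, 36 of them in a single cell. Without it the log2 ratio was 0.00. In the Wnt16- and Mfap4-high subcluster Sema3d was at 42.2 and 70.2 UPM, a log2 ratio of 0.72 (0.19 to 1.29). A subcluster of 33 ND and 30 HFD cells with neutrophil transcripts went the other way, at 73.6 and 32.8 UPM.

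Sema3e was lower in HFD, with a log2 ratio of -0.92 (-1.23 to -0.62). The Pi16 and Dpp4 subcluster, where most of it lay, was at 101 and 94.4 UPM and made up 22.0% of ND and 15.6% of HFD mesenchymal-like cells. The subcluster with neutrophil transcripts, where neutrophil markers summed to 118883 and 96064 UPM, held 76 and 19 Sema3e UMIs, 124 and 41.5 UPM. Without that subcluster the ratio was -0.56, and with the same subcluster weights in both libraries -0.51. Ntn1 was lower by less, at -0.22 (-0.37 to -0.07), and at -0.05 with the same weights in both libraries. Sema3c differed by -0.08 in the sum and 0.25 (0.09 to 0.41) within the Pi16 and Dpp4 subcluster.

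Sema4d (13 and 5.86 UPM) was the gene past 2-fold lower in HFD mesenchymal-like cells, at -1.14 (-1.75 to -0.55), and Sema4a was lower at -0.70. In neutrophil-like cells Sema4d stood at 89.5 and 79.5 UPM and Sema4a at 58.7 and 47.5 UPM. Neutrophil marker genes summed to 19233 UPM in ND and 9099 UPM in HFD mesenchymal-like cells, and their part in the Sema4d and Sema4a values was not tested. Without the subcluster with neutrophil transcripts the Sema4d ratio was -0.92.

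**Figure D5:**
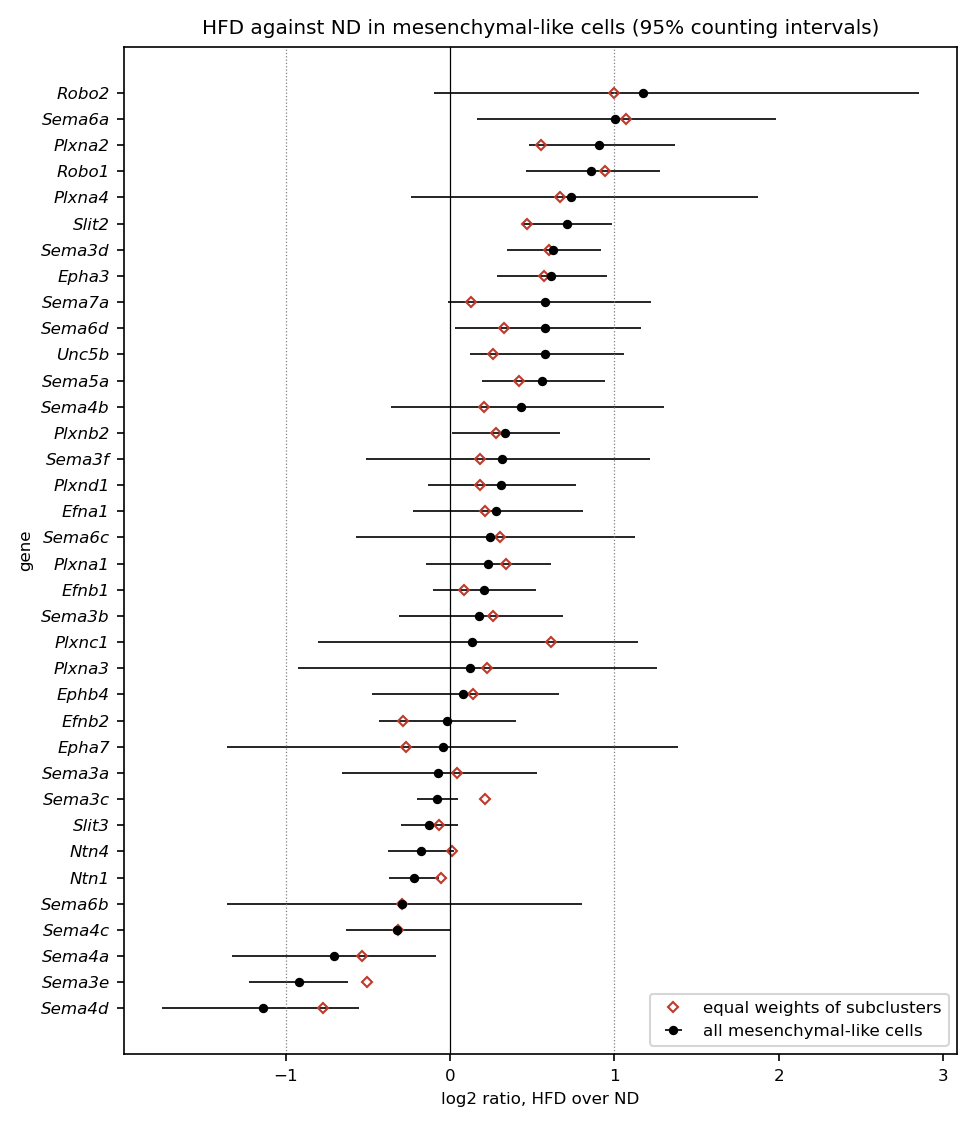
Log2 ratio of HFD over ND in mesenchymal-like cells for each gene with at least 20 UMIs (points with 95% counting intervals). Open diamonds, labelled equal weights, give the ratio with the same subcluster weights in both libraries. The weights were not equal across subclusters. With these weights Robo1 is at 0.95, and Sema3e moves from -0.92 to -0.51.

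In endothelial-like cells 20 genes were compared between diets. None was past 2-fold higher in HFD (3.25% of all genes), and 1 was lower (2.71%), Sema4d with 12 and 10 UMIs, a log2 ratio of -1.22 (-2.60 to 0.10). The median log2 ratio was -0.02, against 0.01 over all genes. Plxnd1 differed by -0.04, Robo4 by 0.04, Sema3g by -0.02 and Sema6a by -0.02, and Efnb2 by -0.33 (-0.69 to 0.03). Ntn1 was at 22.5 and 38 UPM (13 and 43 UMIs), a ratio of 0.72 (-0.17 to 1.78). The endothelial subclusters were not equally filled. The largest one other than the Ccl21a-high cells made up 34.2% of ND and 54.3% of HFD endothelial-like cells. Within it the Plxnd1 and Robo4 levels given above were lower in HFD and that of Sema3g higher. Robo4 was higher in HFD in the Rarres1-high subcluster. The part of the subcluster shares in the ratios over all endothelial-like cells was not tested.

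In the immune niche 20 genes were compared. One was past 2-fold higher in HFD (1.61% of all genes), Slit3, with 3 and 22 UMIs, a log2 ratio of 2.65 (1.10 to 5.22), and 0 were lower (1.93%). The Slit3 levels were 0.122 and 0.872 UPM, beside 0.261 UPM (0.0316 to 0.942) and 0.394 UPM (0.0812 to 1.15) in B cell-like cells and 101 and 92.3 UPM in mesenchymal-like cells, and the part of free RNA was not tested. In macrophage/monocyte-like cells Efnb2 had 2 and 18 UMIs, a log2 ratio of 2.89 (1.11 to 6.32). Sema6b had 29 and 12 UMIs there, a ratio of -1.24 (-2.38 to -0.26). Within neutrophil-like cells Sema4a differed by -0.31 (-0.44 to -0.17), Sema4d by -0.17 and Sema7a by -0.99 (84 and 45 UMIs). Neutrophil-like clusters were not equally filled, as 1 cluster had 126 ND and 8 HFD cells. In B cell-like cells Sema4b was higher in HFD, at 0.36 (0.21 to 0.51), and Sema4d lower, at -0.37 (-0.61 to -0.14). Sema4b varied widely between B lineage clusters, and the part of their shares in this ratio was not tested. For these single blood classes no share over all genes was computed.

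Summed over all kept cells, 42 genes were compared, 8 were past 2-fold higher in HFD (3.89% of all genes) and 0 lower (1.31%). They were Robo2 (1.58), Robo1 (1.36), Plxna2 (1.33), Slit2 (1.25), Sema3d (1.14), Epha3 (1.12), Unc5b (1.05) and Sema5a (1.03). The median log2 ratio was 0.47, against 0.03 over all genes. In such a sum more cells of a class and more RNA per cell cannot be told apart, and the HFD library held more mesenchymal-like and endothelial-like cells. When each class had the same weight in both libraries, 1 gene was past 2-fold, Robo2 at 1.07, and the median was 0.03.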

How the data were processed

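Single-cell libraries of periosteal cells were deposited by the authors as 1 matrix of raw UMI counts per diet, which the submitters' processing notes tie to Cell Ranger 6.0.1 and mm10. Each diet has a single matrix that does not tell mice apart. The counts were used as deposited, with no test, because each diet is 1 sample.

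Barcodes with more than 500 and under 8000 genes and under 20% mt- UMIs were kept (6029 of 6314 ND and 6224 of 6636 HFD). Cells were normalised with sctransform 0.4.2 and clustered in Seurat 5.3.0 under R 4.3.3 (30 principal components, resolution 0.5), leaving 79 guidance genes out. This gave 28 clusters and 12 named classes, called "-like" from at least 3 detected markers, which may differ from the study's own. Unnamed cells were 4.08% and 2.89% of the kept cells. UMIs were summed per class in Python 3.11.15 with scipy 1.17.1, with 0.5 added before a log2 ratio and at least 20 UMIs required over both groups. Doublets were kept. Scrublet (scanpy 1.11.5) called 9 ND and 23 HFD cells, 0.149% and 0.370%, too few to have worked, so cells with a score of 0.25 or more (108 and 86) were left out in an alternative. Ratios and intervals were tested on simulated independent Poisson counts. These lack the clumping of UMIs in single cells, so they cannot show how well the intervals hold under it. Promoter windows came from the RefSeq table.

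The 44 genes and lists were chosen with earlier results of these data known. All 44 genes were accounted for. A gene was given by class if 1 library held at least 20 of its UMIs, and in more detail if its highest class reached 50 UPM or it passed 2-fold between diets.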

Additional observations from a re-analysis of the deposited data

How the results depend on the processing

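No paired analysis was possible because each diet has 1 matrix that does not hold the mice apart, so no replicate block and no leave-one-out could be run. No ratio changed sign once past 2-fold under any alternative. With cells thinned to 1000 UMIs, genes past 2-fold between niches numbered 14 of 16 in ND, against 33 of 36, and genes with the same highest class 14, against 35. A minimum of 100 UMIs gave 23 such genes. For HFD against ND in mesenchymal-like cells, 3 genes were past 2-fold. This became 5 with a minimum of 1 UMI. It became 1 under each of 100 UMIs, the mean over cells and the same subcluster weights in both libraries. It also became 1 on leaving out the subcluster with neutrophil transcripts, added after seeing the data. In endothelial-like cells 1 gene became 4 with a minimum of 1 UMI and 0 with 100 UMIs, thinning, the mean over cells, doublets left out (called or scored), or clustering with the guidance genes. In the immune niche 1 became 12 with a minimum of 1 UMI, 4 with the mean over cells, and 0 with thinning or 100 UMIs. Over all kept cells 8 became 1 with equal class weights. Causes were not tested. Counts other than these stayed within 1.5 times. Ratios of single genes moved too: over all alternatives 151 were marked as moved and 2177 as the same. Thinning moved 9 and left 7 between diets in mesenchymal-like cells, and moved 14 and left 13 between niches in HFD. Centring on the median of all genes moved 23 and left 17 between niches in HFD, and moved 14 and left 22 in ND. The Scrublet score limit, the subclusters left out, endothelial subclusters, the ratio between subclusters and the alternatives for the highest class were chosen after seeing the data.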

Other observations

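A few cells held several markers of Schwann cells, the glia that ensheathe axons, and guidance RNA was counted in them. Cells with at least 4 of 8 Schwann cell markers, chosen after the data were seen, numbered 3 in ND and 10 in HFD. Some of the markers were widespread, as Mbp had a UMI in 1549 ND and 1506 HFD kept cells. In the 10 HFD cells Sema3b had 22 UMIs in 7 cells, 388 UPM (243 to 588), against 13.3 UPM in HFD mesenchymal-like cells. Sema6d had 8 UMIs and Sema3c 6 in the same cells. Sema3c was thus at 106 UPM, below the 178 UPM of HFD mesenchymal-like cells. The 3 ND cells had 1 Sema3b UMI and 3 Sema6d UMIs. These are too few cells to compare diets.

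Genes named for neurons were not all absent. Stmn2, a growth cone microtubule regulator, had 383 ND and 701 HFD UMIs over all kept cells, of which 371 and 659 lay in the stromal/vascular niche. Uchl1 had 642 and 741 UMIs. Snap25 and Nefl had 0 UMIs in both libraries.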
